A study of Homo sapiens with 42 samples.

Results

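The genes described here encode 79 subunits of the mitochondrial respiratory chain and of ATP synthase, measured by poly(A) RNA-seq in 42 libraries of the human clear cell renal carcinoma (ccRCC) line 786-O. Members were taken by a rule on gene symbols that uses no measured value, although it was set with earlier results of these data known. Of the 60609 genes in the count files, 66 were nuclear subunits (36 of complex I, 8 of complex III, 9 of complex IV and 13 of complex V, the ATP synthase) and 13 were subunits encoded in mitochondrial DNA (7 of complex I, 1 of complex III, 3 of complex IV and 2 of complex V). 786-O cells lack functional VHL, so HIF-2α is constitutively stable, and they also lack functional HIF-1α. All groups share this background, the wild type (WT) cells included, and the lines with a HIF-1α transgene add a HIF-1α protein to it.

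The first batch held 27 libraries in 9 groups of 3. These were WT cells, 2 knock-in (KIN) lines with a V5-Halo tag on endogenous HIF-1β (clone A21) or HIF-2α (clone A31), and 6 stable lines carrying a V5-Halo-tagged transgene under the L30 promoter: HIF-1α, its DNA-binding mutant R30E, its dimerization mutant HIF-1αDM (R170A with V191D), HIF-2α, its DNA-binding mutant R27E, and its dimerization mutant HIF-2αDM (R171A with V192D). The genotype field of HIF-2αDM names HIF-1α, whereas its title and description name HIF-2α, and EPAS1 (the gene of HIF-2α) stood at 725 CPM on average in these libraries against 216 CPM in WT. The second batch held 15 libraries in 5 groups of 3: WT, HIF-1α, HIF-2α, and chimeras that exchange the intrinsically disordered region (IDR). In HIF-2α/1α the N-terminal structured part comes from HIF-2α and the IDR from HIF-1α. In HIF-1α/2α the origins are exchanged. Each KIN line is a single clone, the transgenic lines are antibiotic-selected pools, and in every transgenic line the endogenous HIF-2α is still present. Each group has 3 replicates described as biological by the study.

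Respiratory complexes I, III and IV pass electrons from NADH to oxygen and pump protons out of the mitochondrial matrix, and complex V lets the protons return to make ATP. Most subunits are made from nuclear genes in the cytosol and imported, while mitochondrial DNA supplies a small set of hydrophobic core subunits, among them cytochrome b and the catalytic core of cytochrome c oxidase. Mitochondrial DNA is transcribed from both strands as long precursors that are cut into single messages, and all of its protein-coding genes except MT-ND6 lie on the same strand. Human MT-ND6 mRNA is known to carry little or no poly(A) tail. HIF proteins are known for raising glycolytic genes in low oxygen and for lowering the use of oxygen by mitochondria, in part by changing subunits of complex IV and through the transcriptional repressor MXI1.

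A pair of places in mitochondrial DNA (build hg38, strand of the reference, GENCODE gene limits) limits how reads of neighbouring subunits can be separated. In the first, MT-ATP8 (chrM:8366-8572) and MT-ATP6 (chrM:8527-9207) share 46 bases, shown in capitals within chrM:8497-8602. A read or read pair that touches both genes, within these bases or beyond them, is ambiguous in the union mode of the authors' counting. Such reads were not counted. Smaller overlaps, not shown, cover 2.36% of MT-ND4L (with MT-ND4) and 0.128% of MT-CO3 (with MT-ATP6).
MT-ATP8 and MT-ATP6: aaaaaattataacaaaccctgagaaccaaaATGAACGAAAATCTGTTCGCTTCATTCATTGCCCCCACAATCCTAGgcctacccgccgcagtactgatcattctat
In the second, chrM:14634-14786, the capitals mark the start of MT-ND6 (left, read on the opposite strand, gene limits chrM:14149-14673) and the start of MT-CYB (right, chrM:14747-15887), with the gene of the glutamate tRNA between them in lower case. The counting ignored strand, so reads of MT-ND6 and of RNA copied from the opposite strand across it cannot be told apart.
MT-ND6 and MT-CYB: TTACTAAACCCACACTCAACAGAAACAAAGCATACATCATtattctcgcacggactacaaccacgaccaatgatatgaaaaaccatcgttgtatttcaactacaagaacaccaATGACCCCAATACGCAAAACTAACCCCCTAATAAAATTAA

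Promoters are shown for NDUFA6 and COX8A, which rose, and for ATP5F1A and UQCRC2, which fell, in the HIF-2α line of the second batch. Each is 300 bases long and ends shortly after the start of the gene (RefSeq, GRCh38.p14), and capitals mark ACGTG or GCGTG on either strand, the forms of the core to which HIF dimers bind.
NDUFA6 (chr22:42090723-42091022, minus strand): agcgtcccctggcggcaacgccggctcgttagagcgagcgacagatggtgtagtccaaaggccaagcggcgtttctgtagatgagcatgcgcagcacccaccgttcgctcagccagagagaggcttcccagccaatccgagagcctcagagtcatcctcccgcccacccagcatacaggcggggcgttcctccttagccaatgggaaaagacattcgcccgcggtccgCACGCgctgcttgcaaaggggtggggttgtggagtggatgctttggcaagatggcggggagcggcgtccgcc
COX8A (chr11:63974370-63974669, plus strand): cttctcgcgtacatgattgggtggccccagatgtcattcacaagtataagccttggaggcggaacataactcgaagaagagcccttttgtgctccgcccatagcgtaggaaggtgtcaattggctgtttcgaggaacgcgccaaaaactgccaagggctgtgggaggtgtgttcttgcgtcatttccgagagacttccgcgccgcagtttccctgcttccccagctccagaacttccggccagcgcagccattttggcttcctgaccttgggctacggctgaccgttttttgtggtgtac
ATP5F1A (chr18:46104178-46104477, minus strand): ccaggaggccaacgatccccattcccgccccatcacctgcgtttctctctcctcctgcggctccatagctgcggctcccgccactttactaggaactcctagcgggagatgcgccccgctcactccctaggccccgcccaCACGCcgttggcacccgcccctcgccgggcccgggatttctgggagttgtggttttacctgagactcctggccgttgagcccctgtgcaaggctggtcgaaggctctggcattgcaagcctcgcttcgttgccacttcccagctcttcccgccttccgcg
UQCRC2 (chr16:21953111-21953410, plus strand): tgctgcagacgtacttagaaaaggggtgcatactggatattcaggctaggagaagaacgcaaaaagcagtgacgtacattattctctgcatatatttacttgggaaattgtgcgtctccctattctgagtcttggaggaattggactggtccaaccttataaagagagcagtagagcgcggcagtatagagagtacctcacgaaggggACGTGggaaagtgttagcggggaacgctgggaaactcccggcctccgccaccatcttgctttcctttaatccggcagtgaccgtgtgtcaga
Of the 66 nuclear subunits, 56 matched a promoter in the table, and 60.7% of these held ACGTG or GCGTG on either strand, against 48.4% of all 27305 promoters of the same length. Among the subunits called in HIF-2α of the second batch, a match stood in 12 of 18 promoters of those that rose and in 4 of 7 of those that fell. CCGGAAG, a core bound by ETS proteins such as GABPA, stood in 26.8% of the subunit promoters and 10.7% of all promoters, and the NRF1 palindrome in 5.36% and 1.36%, both searched on either strand. A match is a description of the sequence and not a measured site.

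Libraries of the first batch held 42377599 to 101186554 counted reads. Those of the second held 76366799 to 109642159, and all 79 subunits passed the filter on low counts in both. The transgenes were visible in their own genes: HIF1A averaged 147 CPM in the HIF-1α line of the second batch against 3.27 CPM in WT, and EPAS1 averaged 475 CPM in the HIF-2α line against 141 CPM. All 7 markers of renal tubule and carcinoma cells (such as PAX8 and KRT18) were at 1 CPM or more in every library. Of 8 markers of other cell types, 7 stayed under 1 CPM in every library, CD3E was at 0 in all of them, and COL1A1 alone made up nearly all of the summed level, which was 8.42 to 15.4 CPM in WT of the first batch, 5.71 to 6.95 CPM in WT of the second and 5.66 to 36.8 CPM over all libraries. In the second batch the summed level was 12.9 to 14.7 CPM in HIF-2α, 10.5 to 13.5 CPM in HIF-1α and 11.4 to 15.1 CPM in HIF-2α/1α, all above WT, and 5.66 to 7.01 CPM in HIF-1α/2α. COL1A1 rose by 1.13, 0.94 and 1.084 (log2) in the first 3 of these lines, and by 1.23 in HIF-2α and 1.29 in HIF-1α of the first batch. The part of this marker in the results for subunits was not tested.

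Mitochondrial subunits took very different shares of the reads in the 2 batches. They held 0.0599% to 0.321% of counted reads in the first batch (median 0.149%) and 0.775% to 1.21% in the second (median 1.07%), with no overlap. The nuclear subunits together held 0.392% to 0.706% and 0.509% to 0.571%, which do overlap. The batches differed in RNA extraction (column or TRIzol), library kit, read length and sequencing site, so these causes cannot be told apart, and every comparison below was made within a batch. Per kilobase of transcript, the median level in WT was 45.8 CPM for nuclear and 65.6 CPM for mitochondrial subunits in the first batch, against 61.5 and 445 CPM in the second. The ratio of second to first batch in WT, also per kilobase, had a median of 1.26 (0.121 to 3.42) for nuclear subunits. For mitochondrial subunits it had a median of 7.61, lowest for MT-CO3 at 4.08 and highest for MT-CYB at 13.0. In the second batch MT-CO1, MT-CO2 and MT-CO3 were the highest members in WT at 1691, 1650.3 and 1539.8 CPM per kilobase, and the highest nuclear one was ATP5F1B, the catalytic β subunit of ATP synthase, at 464.

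**Figure D1:**
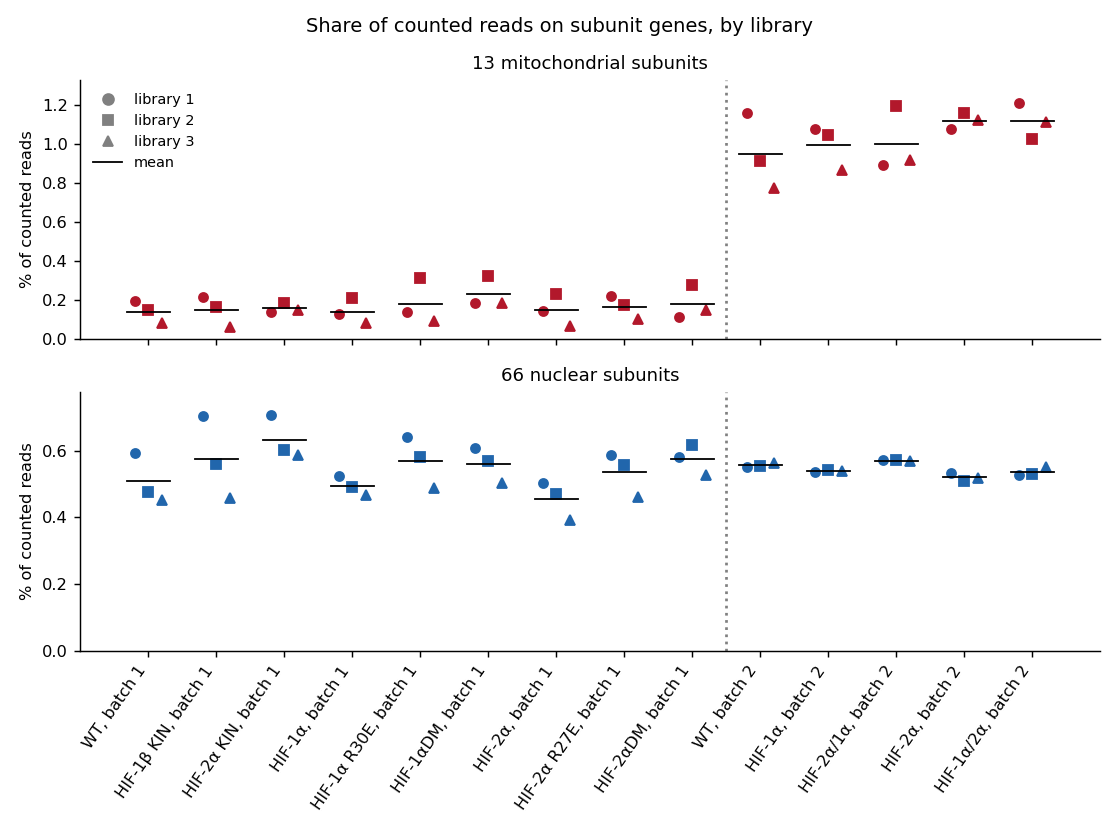
Share of counted reads (%) on the 13 mitochondrial subunits (top) and the 66 nuclear subunits (bottom) in each library, with 3 libraries and their mean (line) per group, and a dotted line between the batches. Mitochondrial shares reach at most 0.321% in the first batch and at least 0.775% in the second, while nuclear shares of both batches lie between 0.392% and 0.706%.

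The spread between replicates also differed. The median coefficient of variation over nuclear subunits was 14.7% to 31.6% in the 9 groups of the first batch and 2.79% to 4.87% in the 5 groups of the second. Over mitochondrial subunits it was 22.2% to 52.9% and 4.24% to 22.0%, with WT the most variable group of the second batch. The first batch carried a pattern by library number. In all 9 groups, 22 of the 66 nuclear subunits (33.3%, against 4.88% of all genes) were lower in the library numbered 3 than in both others, and 5 (7.58%, against 4.84%) were higher. All genes include many of few reads, so these shares do not come from genes measured as precisely. The ratio of library 3 to the mean of libraries 1 and 2 had a median over the 9 groups of 0.367 for UQCRH, 0.410 for ATP5F1E and 0.461 for ATP5MC1, and of 10.5 for NDUFA13, 3.99 for NDUFV2 and 3.02 for COX6A1. The 5 that were higher (with NDUFS7 at 1.68 and NDUFA11 at 1.56) were all among the 16 members of which at least 20% of the exon length overlaps another annotated gene. Among the same 16, ATP5F1E (32.7% overlap) and NDUFB9 (23.9%, ratio 0.564) were lower in library 3 in all 9 groups. Such overlap lets reads fall out of union counting, and it covers 89.96% of NDUFV2 and 83.9% of NDUFA13. The part of overlap in this pattern was not tested. The medians of this ratio were 0.835 over nuclear, 0.624 over mitochondrial and 0.992 over all genes. Libraries numbered 3 held 72801922 to 101186554 counted reads, against 47720333 to 76188914 for number 1 and 42377599 to 67720483 for number 2. The study gives a range of read lengths for this batch and does not assign them to libraries. The part of depth or read length was not tested, and what else sets libraries numbered 3 apart is not given in the sources used here.

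**Figure D2:**
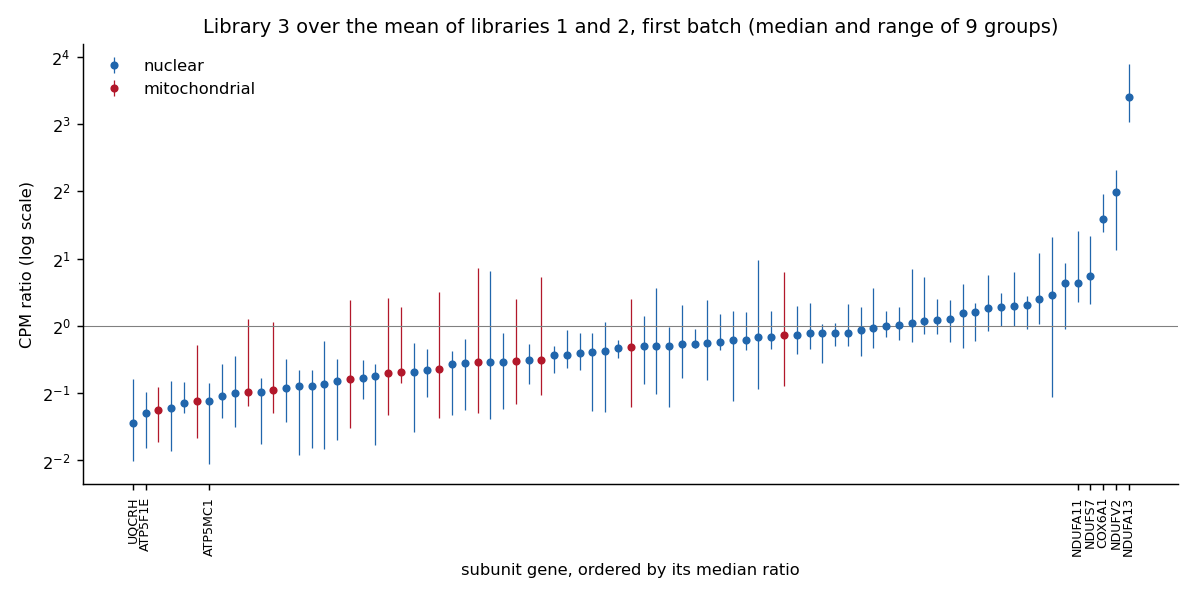
For each of the 79 subunits (x axis, ordered by the median, with the names of those given in the text), the CPM of the first batch's library 3 divided by the mean of libraries 1 and 2 (y axis, log scale), as the median (point) and range (line) over 9 groups, in blue for nuclear and red for mitochondrial subunits. UQCRH has the lowest median at 0.367 and NDUFA13 the highest at 10.5.

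The second batch asked whether HIF-1α, HIF-2α and their chimeras change transcription differently from WT cells, and here nuclear subunits moved in both directions. A subunit was called where the adjusted p of edgeR's quasi-likelihood test, over all genes tested, was at most 0.01. In the HIF-2α line 19 nuclear subunits rose and 10 fell, where 13.4% of all genes rose and 14% fell. In HIF-1α/2α, 18 rose and 7 fell (all genes 13.7% and 14.1%). In HIF-2α/1α, 12 rose and 2 fell (8.76% and 7.91%), and in HIF-1α, 1 rose and 5 fell (9.31% and 7.87%). The changes were small: the median log2 change over the 66 was 0.10, 0.14, 0.13 and 0.03 in that order, against 0.07, 0.08, 0.03 and 0.03 over all genes tested. Only NDUFA13 was called with a change of at least 2-fold, where 11.5% of all genes tested were in at least 1 of these lines. The 4 lines share the same 3 WT libraries. In HIF-2α the median standard error was 0.06 over nuclear subunits and 0.34 over all genes, which include many genes of few reads. The shares of all genes given here and below thus do not come from genes measured as precisely. The part of this in the counts of calls was not tested.

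**Figure D3:**
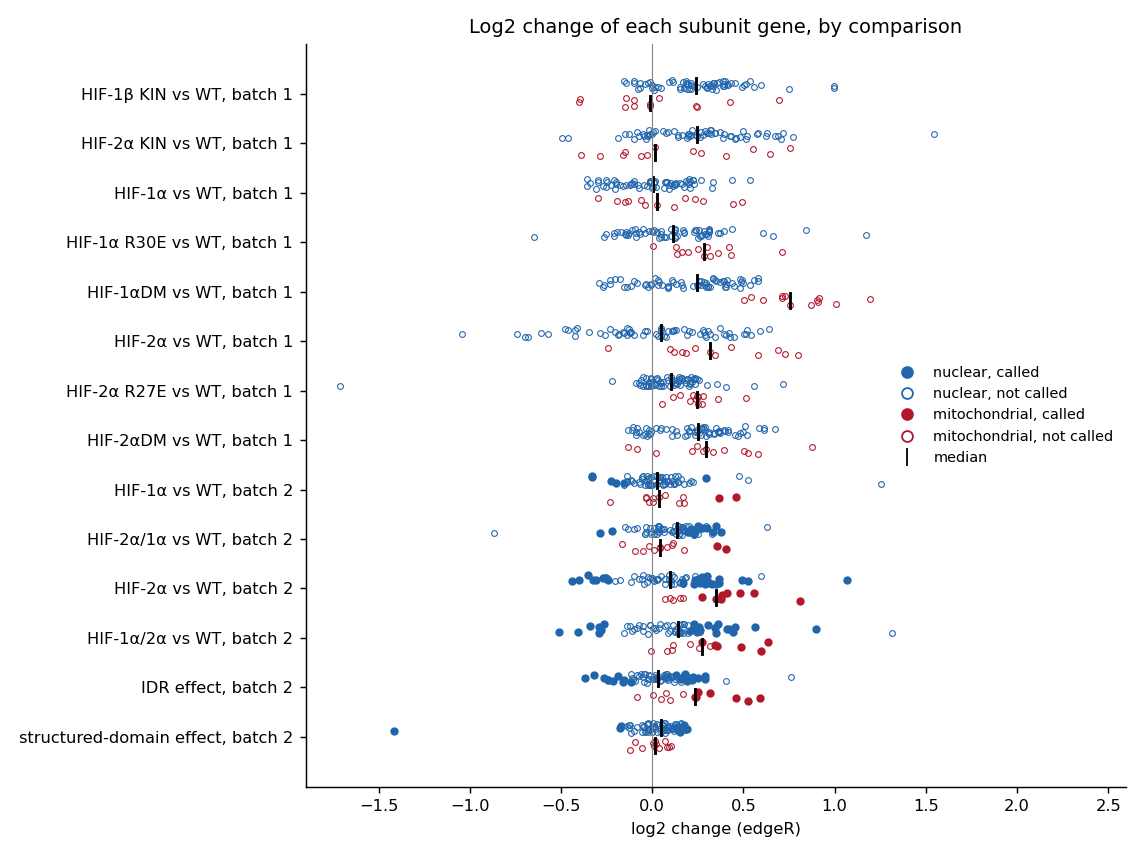
Log2 change (x axis, edgeR) of each nuclear (blue) and mitochondrial (red) subunit in 14 comparisons, with filled points for calls at an adjusted p of at most 0.01 and black bars for medians. Filled points appear only in the second batch, where the medians of nuclear subunits lie between 0.03 and 0.14 in the 4 comparisons with WT.

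Among complex I subunits, NDUFA6, an accessory subunit of the matrix arm, rose the most firmly. It stood at 50.8, 49.6 and 48.3 CPM in WT, at 74.97, 71.6 and 67.6 CPM in HIF-2α and at 64.4, 65.9 and 68.6 CPM in HIF-1α/2α. All libraries of both lines lay above WT, with log2 changes of 0.53 ± 0.06 (SE, adjusted p = 1.57e-10) and 0.42 ± 0.06 (4.13e-08). NDUFA6 was at 59.7, 60.03 and 58.4 CPM in HIF-2α/1α, also above WT (0.26 ± 0.06, adjusted p = 0.000423), and at 52.2, 54.1 and 54.2 CPM in HIF-1α, where it was not called. NDUFC1, a small accessory subunit, was at 26.3, 26.2 and 25.9 CPM in WT. It rose in HIF-1α (0.29 ± 0.06) to 32.6, 31.6 and 31.9 CPM, in HIF-2α/1α (0.38 ± 0.06) to 34.4, 33.9 and 33.6 CPM and in HIF-1α/2α (0.36 ± 0.06) to 32.6, 35.1 and 33.0 CPM. NDUFC1 was not called in HIF-2α, at 29.2, 29.7 and 29.4 CPM, although these libraries also lay above WT. NDUFB1, NDUFB11 and NDUFA3 rose in both lines with the HIF-2α IDR, by 0.31 and 0.56, 0.35 and 0.23, and 0.33 and 0.46.

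NDUFS1, a core subunit that carries iron-sulfur clusters, fell in all 4 lines. It was at 132, 136 and 134.5 CPM in WT and between 107 and 118 CPM in the 12 libraries of the lines, with no overlap. Its log2 changes were -0.23 ± 0.05 in HIF-1α, -0.29 ± 0.05 in HIF-2α/1α, -0.31 ± 0.05 in HIF-2α and -0.26 ± 0.05 in HIF-1α/2α. NDUFA12, a late-joining accessory subunit, fell in HIF-1α from 45.6, 45.7 and 44.7 CPM to 34.9, 37.1 and 36.2 CPM (-0.33 ± 0.06, adjusted p = 3.12e-05). Its fall in HIF-2α/1α (-0.22 ± 0.06) was lost when any library of WT, or library 1 or 2 of that line, was left out. NDUFA13 rose in HIF-2α by 1.07 ± 0.28 from 0.495, 0.461 and 0.526 CPM to 1.01, 0.980 and 1.11 CPM, a level of about 50 reads in each WT library, with 83.9% of its exons overlapping another gene. The call on NDUFA13 was lost without WT library 2.

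**Figure D4:**
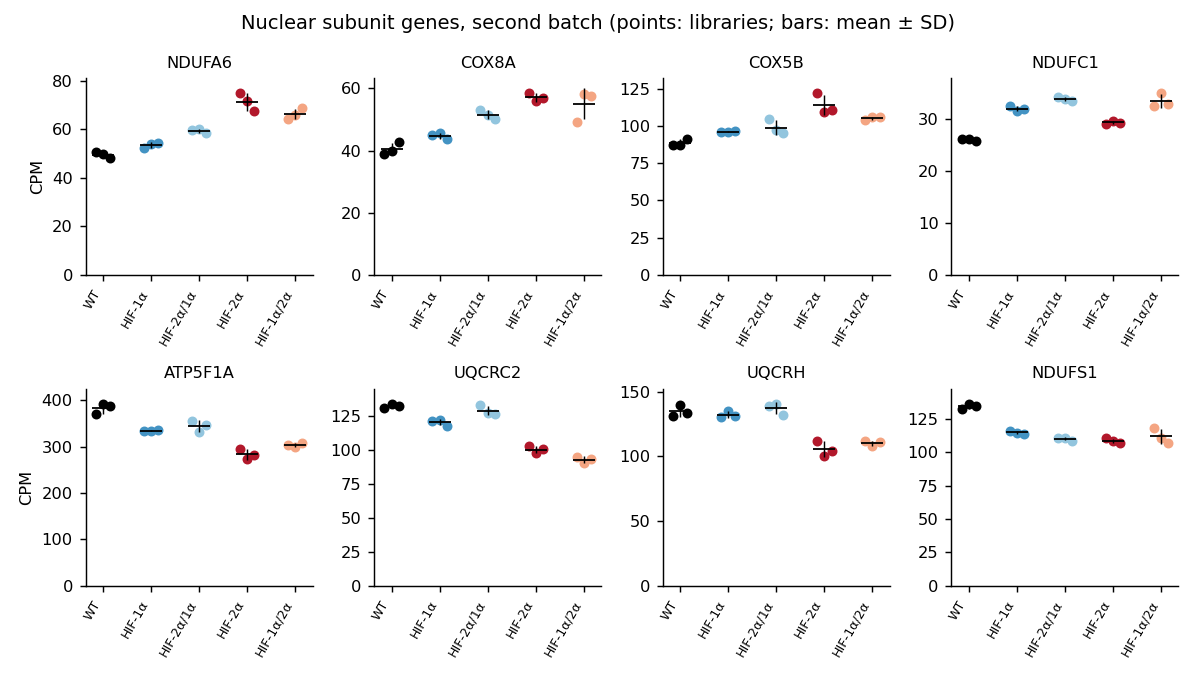
CPM (y axes, from 0) of 8 nuclear subunit genes in the 3 libraries of each group of the second batch (points), with mean and SD (bars). NDUFA6 and COX8A stand highest in HIF-2α and HIF-1α/2α, and ATP5F1A and UQCRC2 stand lowest in the same lines.

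In complex III, 1 of 8 subunits rose and 2 fell in HIF-2α (13.4% and 14% of all genes), 2 rose and 3 fell in HIF-1α/2α (13.7% and 14.1%), and 1 rose in HIF-2α/1α (8.76%). The subunits that fell in both of the first lines were UQCRC2, a core protein of the matrix side, and UQCRH, the hinge protein that binds cytochrome c1. UQCRC2 was at 130.5, 134 and 132 CPM in WT, 102, 97.2 and 101 CPM in HIF-2α and 94.9, 89.9 and 93.0 CPM in HIF-1α/2α. These are falls of -0.40 ± 0.05 (adjusted p = 8.09e-09) and -0.51 ± 0.05 (1.35e-11). With the HIF-1α IDR, UQCRC2 was at 121, 122 and 117 CPM in HIF-1α and 132, 127 and 126 CPM in HIF-2α/1α, and was not called. UQCRH fell in the same 2 lines, by -0.35 ± 0.05 and -0.29 ± 0.05, from 131, 139.7 and 134 CPM in WT to between 100.4 and 112 CPM, with no overlap. UQCRQ rose in HIF-2α/1α (0.33 ± 0.06) and HIF-2α (0.27 ± 0.06). In HIF-1α/2α UQCR11 fell (-0.28 ± 0.08), and UQCRC1 (0.25 ± 0.06) and the Rieske protein UQCRFS1 (0.23 ± 0.06) rose.

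In complex IV, 6 of 9 subunits rose and 1 fell in HIF-2α (13.4% and 14% of all genes), 4 rose in HIF-1α/2α (13.7%) and 3 rose in HIF-2α/1α (8.76%). None was called in HIF-1α by edgeR, where 3 had an unadjusted p under 0.05 (9016 of all 28724 genes). COX8A, a small membrane subunit, was at 39.1, 39.7 and 42.8 CPM in WT and at 58.5, 55.8 and 56.9 CPM in HIF-2α. It was at 49.3, 58.3 and 57.7 CPM in HIF-1α/2α and 53.1, 51.5 and 50.2 CPM in HIF-2α/1α, so that each of these lines lay above WT. The log2 changes of COX8A were 0.49 ± 0.06, 0.44 ± 0.06 and 0.35 ± 0.06. COX5B, which binds zinc on the matrix side, rose from 87.2, 87.4 and 91.4 CPM to 122, 109.7 and 111 CPM in HIF-2α (0.37 ± 0.05) and by 0.25 ± 0.05 in HIF-1α/2α. Its partner COX5A fell in HIF-2α (-0.33 ± 0.06).

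In complex V, 3 of 13 subunits rose and 4 fell in HIF-2α (13.4% and 14% of all genes), and 3 rose and 2 fell in HIF-1α/2α (13.7% and 14.1%). In HIF-2α/1α 2 rose (8.76%) and in HIF-1α 2 fell (7.87%). ATP5F1A, the α subunit, was at 369.8, 393 and 387 CPM in WT, at 296, 273 and 281 CPM in HIF-2α and at 303, 298 and 308 CPM in HIF-1α/2α. Its log2 changes were -0.44 ± 0.05 (adjusted p = 1.73e-10) and -0.34 ± 0.05 (7.82e-08). In HIF-1α it was at 333, 335 and 335 CPM (-0.20 ± 0.05, lost without WT library 2), and in HIF-2α/1α at 356, 331 and 347 CPM, not called. ATP5F1B, the β subunit, fell in HIF-2α (-0.24 ± 0.05), HIF-1α/2α (-0.29 ± 0.05) and HIF-1α (-0.15 ± 0.05). ATP5F1C, the γ subunit, and ATP5PB, of the peripheral stalk, fell in HIF-2α (-0.25 ± 0.05 and -0.26 ± 0.05). ATP5F1E, the ε subunit of the same head, rose there (0.31 ± 0.05) and in HIF-1α/2α (0.26 ± 0.05). Subunit c, the proton-carrying ring, is made from 3 genes whose products differ only in the import presequence. ATP5MC2 rose in HIF-2α (0.25 ± 0.05), HIF-1α/2α (0.21 ± 0.05) and HIF-2α/1α (0.20 ± 0.05), from 113, 111 and 119 CPM in WT to 144, 131 and 133 CPM in HIF-2α, and the last 2 calls were lost without WT library 1 or 2 and without library 2 of HIF-1α/2α or library 1 or 3 of HIF-2α/1α. ATP5MC1, at 100.1, 96.4 and 98.7 CPM in WT and 104, 91.3 and 90.1 CPM in HIF-2α, and ATP5MC3 were not called in any of the 4 lines.

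Single libraries decided part of the 14 calls in HIF-2α/1α, which became 8 without its library 1 or WT library 2 and 9 without WT library 1. Transcript length also moved with the direction of call. In HIF-2α the nuclear subunits that rose had a median length of 586 bases, those that fell 1686 and those not called 857. Of 40 subunits under 1000 bases, 16 rose (40%) and 2 fell (5%), against 5.79% and 2.12% of all genes of that length. Of the 26 longer ones 3 rose (11.5%) and 8 fell (30.8%), against 16.8% and 19.3% of all genes of that length. The median log2 change of genes under 1000 bases was 0.17 for subunits and 0.18 for all genes, and the part of length in the result was not tested. Leaving out the 15 nuclear members that overlap another gene, 14 rose and 9 fell in HIF-2α and 14 rose and 7 fell in HIF-1α/2α. As the share of all counted reads, the 66 together were 0.550%, 0.554% and 0.563% in WT, 0.509% to 0.532% in HIF-2α, 0.527% to 0.550% in HIF-1α/2α, 0.537% to 0.542% in HIF-1α and 0.569% to 0.571% in HIF-2α/1α. Thus HIF-2α/1α lay above WT and the other 3 lines below it, HIF-1α/2α only in the fourth digit. In bulk RNA a change in every cell and a change in part of the cells cannot be told apart.

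Mitochondrial subunits were called only upwards in the comparisons with WT. In HIF-2α 8 of 13 rose (13.4% of all genes) and in HIF-1α/2α 6 (13.7%), with median log2 changes of 0.35 and 0.27 against 0.07 and 0.08 over all genes. In HIF-1α and HIF-2α/1α only MT-ND1 and MT-ND2 rose (9.31% and 8.76% of all genes), and both medians were 0.04 against 0.03. MT-CYB, the cytochrome b of complex III, was at 556, 445 and 366 CPM in WT, 792, 826 and 777 CPM in HIF-2α and 763, 656 and 649.5 CPM in HIF-1α/2α. The libraries of both lines lay above WT, with changes of 0.81 ± 0.09 (adjusted p = 1.24e-10) and 0.60 ± 0.09 (1.77e-07). These errors come from edgeR's test and not from the replicates of the gene alone. Between replicates, the median over the 13 had an SD (log2) of 0.22 for HIF-2α with WT and 0.23 for HIF-1α/2α with WT. In HIF-1α MT-CYB was at 552, 547 and 446 CPM and in HIF-2α/1α at 472, 599.8 and 471 CPM, overlapping WT. MT-ND6, from the other strand, was at 220.2, 182 and 147 CPM in WT, 249.6, 268 and 248 CPM in HIF-2α (0.48 ± 0.10) and 283, 287 and 283 CPM in HIF-1α/2α (0.64 ± 0.10), again without overlap. MT-ND5 was at 714, 598 and 453 CPM in WT, 751, 801 and 739 CPM in HIF-2α (0.38 ± 0.11) and 894, 815 and 769 CPM in HIF-1α/2α (0.49 ± 0.11).

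MT-ND1 and MT-ND2, the first protein genes of the long heavy-strand message, behaved in another way. MT-ND1 was at 541, 405 and 319 CPM in WT and at 639.5, 603 and 498 CPM in HIF-1α (0.46 ± 0.10, adjusted p = 0.000326), overlapping in 1 library. It was called in HIF-2α/1α (0.41 ± 0.10) and HIF-2α (0.39 ± 0.10) and not in HIF-1α/2α (0.32 ± 0.10). MT-ND2 was called in all 4 lines, by 0.56 in HIF-2α, by 0.36 in HIF-1α and in HIF-1α/2α, and by 0.35 in HIF-2α/1α. MT-ND4 rose in HIF-2α (0.41 ± 0.09) and HIF-1α/2α (0.34 ± 0.09), MT-CO2 in both by 0.27 ± 0.08, and MT-ATP6 in HIF-2α (0.35 ± 0.09). MT-CO1, MT-CO3, MT-ATP8, MT-ND3 and MT-ND4L were not called in any of the 4 lines, with log2 changes from -0.23 (MT-ATP8 in HIF-1α) to 0.21 (MT-CO1 in HIF-1α/2α).

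The number of calls on mitochondrial subunits moved when single libraries of WT or of the lines were left out. The summed shares of the WT libraries were 1.16%, 0.913% and 0.775%, and the share overlapped WT in every line. In HIF-2α the count went from 8 to 5 without its library 1 or without WT library 2, to 4 without its library 2 and to 3 without WT library 3. In HIF-1α/2α it went from 6 to 3 without its library 1 or without WT library 2, to 2 without WT library 3, and to 10 without WT library 1. The 2 in HIF-1α became 1 without its library 1 or 2 or WT library 2 or 3 and 4 without WT library 1, and the 2 in HIF-2α/1α became 0 without its library 2 or WT library 2 or 3. DESeq2 called MT-CYB in HIF-2α, and MT-CYB and MT-ND6 in HIF-1α/2α. It called 0 mitochondrial subunits in HIF-1α and HIF-2α/1α, where edgeR gave 4 and 3 with an unadjusted p under 0.05 (9016 and 9227 of all 28724 genes). MT-CYB kept its call in HIF-2α and HIF-1α/2α in every alternative run except a 2-fold minimum.

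**Figure D5:**
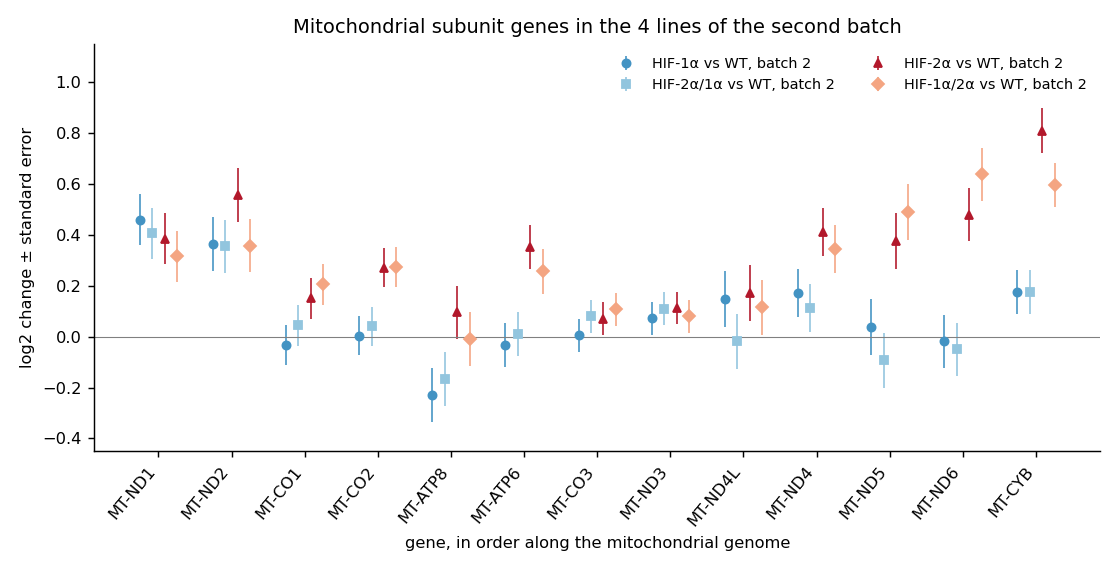
Log2 change ± standard error (y axis, edgeR) of the 13 mitochondrial subunit genes, in order along the mitochondrial genome (x axis), in the 4 lines of the second batch against WT. MT-CYB reaches 0.81 in HIF-2α and 0.60 in HIF-1α/2α against 0.18 and 0.17 with the HIF-1α IDR, while MT-ND1 lies between 0.32 and 0.46 in all 4 lines.

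The exchange of IDRs allows lines with either IDR to be compared without WT cells. The difference is the mean of HIF-2α and HIF-1α/2α minus the mean of HIF-1α and HIF-2α/1α. Each construct is in a single selected pool. The IDR, or the structured domain below, thus cannot be told apart from the pool and its transgene level. With the HIF-2α IDR 11 nuclear subunits were higher and 10 lower, where 11.4% and 13.4% of all genes were, and 7 mitochondrial subunits were higher and 0 lower. The median log2 difference was 0.03 over nuclear, 0.24 over mitochondrial and 0.02 over all genes. UQCRC2 (-0.37 ± 0.04, adjusted p = 1.16e-11), UQCRH (-0.32 ± 0.04), ATP5F1A (-0.21 ± 0.03) and NDUFB4 (-0.15 ± 0.04) were among those lower in all 6 libraries with the HIF-2α IDR than in the other 6. NDUFA6 (0.29 ± 0.04), NDUFB6 (0.25 ± 0.04), ATP5F1E (0.19 ± 0.04) and COX6B1 (0.16 ± 0.04) were higher in all 6. MT-ND6 (0.59 ± 0.07, adjusted p = 7.1e-09), MT-CYB (0.53 ± 0.06, 1.18e-09) and MT-ND5 (0.46 ± 0.08, 4.07e-06) did not overlap either. Such separation was seen in 5.79% of all genes upwards and 7.44% downwards, against 4 and 5 of 66 nuclear and 3 and 0 of 13 mitochondrial subunits.

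The same direction of the IDR difference on each structured domain, HIF-1α/2α against HIF-1α and HIF-2α against HIF-2α/1α, was seen for 44 of 66 nuclear subunits (66.7%), 10 of 13 mitochondrial subunits and 63.5% of all genes. MT-CYB differed by 0.42 on the HIF-1α domain and 0.63 on the HIF-2α domain, MT-ND6 by 0.66 and 0.53, and MT-ND5 by 0.45 and 0.47. DESeq2 called these 3 mitochondrial subunits and no other. Within the reads of the 13 mitochondrial subunits, which do not depend on any scaling between libraries, MT-ND6 took 2.16% to 2.73% with the HIF-2α IDR against 1.63% to 1.95% with the HIF-1α IDR, with WT at 1.91% to 2.01%. MT-CYB took 5.73% to 7.10% against 5.16% to 5.35% (WT 4.76% to 4.93%) and MT-ATP6 7.62% to 8.35% against 7.20% to 7.54% (WT 7.64% to 8.00%). MT-ND1 took less, 4.53% to 5.06% against 5.45% to 6.06% (WT 4.16% to 4.79%), and so did MT-CO3, 10.7% to 11.8% against 11.8% to 14.2% (WT 12.4% to 14.1%). For MT-ATP6 the WT range thus lay within that of the HIF-2α IDR, and for MT-ND1 it lay below that of the HIF-1α IDR. These 5 genes separated the 6 libraries from the other 6, and the remaining 8 overlapped. Shares of a fixed total are tied, so a larger share of some genes makes that of others smaller. In edgeR's log2 difference between the IDRs, 12 of the 13 were positive and 1 was negative, at -0.083.

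The structured-domain difference, the mean of HIF-2α and HIF-2α/1α minus the mean of HIF-1α and HIF-1α/2α, was smaller. With the HIF-2α domain 5 nuclear subunits were higher and 3 lower (5.6% and 5.81% of all genes), and edgeR called 0 mitochondrial subunits, with 0 at an unadjusted p under 0.05 and 0 called by DESeq2. NDUFB10 (0.17 ± 0.04), COX6A1 (0.19 ± 0.05) and NDUFA1 (0.15 ± 0.04) were higher in all 6 libraries, NDUFS5 and NDUFB11 by 0.14 ± 0.04 with overlap, and UQCRC1 (-0.17 ± 0.04) and UQCRFS1 (-0.18 ± 0.04) were lower with overlap. NDUFV2 was lower by -1.42 ± 0.39 at under 0.4 CPM in every library of these lines, and this call was lost in 9 of 12 fits that left out a library. The count of nuclear calls depended on the tool: DESeq2 made 20 where edgeR made 8. The share of all genes that DESeq2 called is not given here, so the 20 cannot be set against it. The count of edgeR became 4 without library 2 of HIF-1α or library 1 of HIF-2α/1α. It became 5 without library 1 of HIF-1α, library 1 of HIF-1α/2α or library 2 of HIF-2α/1α.

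The first batch compared the KIN lines and the functional and mutant transgenes with WT, and the functional transgenes with their mutants. edgeR called 0 of the 79 subunits in all 12 comparisons, with 1 to 9 nuclear and 0 to 5 mitochondrial subunits per comparison at an unadjusted p under 0.05. Of the 23410 genes tested, 1755 (R27E against WT) to 6075 (HIF-2α against WT) were under that p. DESeq2 called 1 nuclear subunit in each KIN line and in R30E and 0 in the rest. Of all genes, edgeR called 1.78% in HIF-1β KIN, 5.89% in HIF-2α KIN, 4.79% in HIF-1α, 3.33% in R30E, 0.474% in HIF-1αDM, 7.99% in HIF-2α, 0.521% in R27E and 0.504% in HIF-2αDM. It called 2.18% for HIF-1α against R30E, 1.6% for HIF-1α against HIF-1αDM, 4.99% for HIF-2α against R27E and 5.43% for HIF-2α against HIF-2αDM, and at least a 2-fold call in any line against WT was made for 10.2% of genes.

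The largest median among mitochondrial subunits was in HIF-1αDM, the mutant that cannot pair with HIF-1β. All 13 had values above WT, from 0.50 to 1.19 (median 0.76, against 0.25 for nuclear subunits and 0.00 for all genes). All 13 were also above WT in R30E and R27E, 12 in HIF-2α, 11 in HIF-2αDM, 7 in HIF-1α and HIF-2α KIN, and 5 in HIF-1β KIN. These lines share the same WT libraries, and the 13 genes share libraries and are not replicates. In HIF-1αDM 5 of the 13 had an unadjusted p under 0.05 (2040 of all 23410 genes), and the smallest adjusted p was 0.15 (edgeR). MT-ND3 was at 32.4, 38.4 and 31.5 CPM in WT and 66.5, 95.1 and 72.5 CPM in HIF-1αDM, without overlap (1.19 ± 0.35). The summed mitochondrial share did overlap, at 0.181% to 0.321% in HIF-1αDM and 0.0792% to 0.192% in WT. The 2 mitochondrial rRNA genes had a median of 0.90 in HIF-1αDM, and neither was called. Their median was close to this in HIF-2α (0.81) and HIF-2αDM (0.78) of the same batch, and -1.19 in HIF-2α KIN. In the other 7 lines the mitochondrial median ran from -0.01 to 0.31 and the nuclear median from 0.01 to 0.25. With HIF-1αDM as the reference, all 13 mitochondrial subunits had values below 0 in HIF-1α (median -0.73). Of these 3 had an unadjusted p under 0.05 in edgeR (2761 of all 23410 genes), and 0 were called by edgeR or DESeq2.

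Same-numbered libraries of the first batch deviated together in every comparison with WT, in those of HIF-2α with its mutants and in that of HIF-1α with HIF-1αDM, and a fit with the library number as a block made calls in most of them. It called 3 nuclear subunits in HIF-1β KIN (3.92% of all genes), 6 in HIF-2α KIN (10.8%), 2 in R30E (6.19%), 6 in HIF-2α (13.8%), 2 for HIF-2α against R27E (9%) and 4 for HIF-2α against HIF-2αDM (10.3%), and 1 mitochondrial subunit, MT-ND3, in HIF-1αDM (1.22%). It called 0 in HIF-1α (8.49%), R27E (1.26%) and HIF-2αDM (1.12%), and 0 for HIF-1α against HIF-1αDM (3.23%). ATP5MC1 was at 107, 68.9 and 37.0 CPM in WT, 297, 240.2 and 83.6 CPM in HIF-2α KIN and 191, 164 and 69.1 CPM in HIF-1β KIN. In each number the KIN library was above its WT library, although the groups overlapped, and with the block ATP5MC1 rose by 1.49 ± 0.22 (adjusted p = 4.71e-06) and 0.99 ± 0.22 (0.00266). UQCRFS1, the Rieske iron-sulfur protein of complex III, was at 33.9, 26.8 and 14.4 CPM in WT and 81.0, 47.0 and 41.5 CPM in R30E, and rose by 1.22 ± 0.18 (adjusted p = 6.25e-06) with the block. COX5A rose with the block in both KIN lines and in R30E by 1.00 ± 0.20, 0.71 ± 0.20 and 0.84 ± 0.20. Each KIN line is 1 clone, so tag and clone cannot be told apart.

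In the HIF-2α line of the first batch the calls of the block fit included UQCRH (-1.0002 ± 0.23) and UQCRC2 (-0.71 ± 0.18), which were lower, and NDUFA6 (0.56 ± 0.16), COX8A (0.51 ± 0.14) and NDUFB11 (0.52 ± 0.14), which were higher. UQCRH was at 189, 91.7 and 51.5 CPM in WT and 73.5, 60.1 and 27.4 CPM in HIF-2α, lower in each number although the groups overlapped. Against R27E, UQCRH was lower by -1.06 ± 0.23 and NDUFA6 higher by 0.61 ± 0.16 with the block, and against HIF-2αDM, UQCRH (-1.08 ± 0.23), NDUFB9 (-1.11 ± 0.22), ATP5MC1 (-0.91 ± 0.22) and ATP5PB (-0.80 ± 0.18) were lower. When only libraries numbered 1 and 2 were used, with no block, UQCRH was called in HIF-2α against WT (-1.05, with 7.8% of all genes called) and R27E (-1.27, 5.52%). NDUFB9 was called in HIF-2α against HIF-2αDM (-1.05, 5.28%). ATP5MC1 (1.63) and ATP5PD (0.83) were called in HIF-2α KIN (5.42%), and UQCRFS1 in R30E (1.11, 2.74%). These libraries are also part of the block fit, and the subset was chosen after seeing the data.

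HIF-1α and HIF-2α were the lines measured in both batches, each against its own WT. Of the nuclear subunits that rose in HIF-2α in the second batch, 15 of 19 had the same sign in the first (all genes 91.1%), of those that fell 9 of 10 (all genes 94.4%), and of the 8 mitochondrial subunits 7. The exceptions were NDUFA1, COX6B1, ATP5MC2 and ATP5PD, which rose, COX5A, which fell, and MT-ND1. For HIF-1α the sign was shared by the 1 nuclear subunit that rose, the 5 that fell and the 2 mitochondrial ones (all genes 96.9% and 99.1%). The difference between the responses in the 2 batches was called for 0 subunits by edgeR in either line, where 0.00374% of all genes were called for HIF-1α and 0% for HIF-2α. At an unadjusted p of edgeR under 0.05 there were 1 nuclear subunit and 0 mitochondrial ones for HIF-1α and 7 and 1 for HIF-2α. Of the 26763 genes tested, 1453 and 2855 were under that p. DESeq2 also called 0 subunits in either line. With the library number as a block within each batch, although the numbers pair libraries in the first batch only, 3 nuclear subunits and the mitochondrial MT-ND1 (0.56) and MT-ND3 (-0.71) were called for HIF-2α, where 3.17% of all genes were, and 0 subunits for HIF-1α (0.116%).

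Other genes of the pathway were taken from lists fixed with earlier results of these data known. Of 24 tested genes that copy and express mitochondrial DNA, 16 fell and 1 rose in HIF-2α of the second batch (14% and 13.4% of all genes), and 14 fell and 2 rose in HIF-1α/2α (14.1% and 13.7%). In each of HIF-1α and HIF-2α/1α 7 fell and 0 rose (7.87% and 9.31% of all genes in the first, 7.91% and 8.76% in the second). TFAM, which packages mitochondrial DNA and starts its transcription, fell by -0.67 in HIF-2α, -0.22 in HIF-1α and -0.32 in HIF-2α/1α. LRPPRC, which stabilizes mitochondrial messages, fell by -0.66 in HIF-2α and -0.47 in HIF-1α/2α, and its partner SLIRP rose by 0.51 in HIF-1α/2α. FASTKD1 (-0.81) and PNPT1 (-0.71), both of mitochondrial RNA processing, fell in HIF-2α. The mitochondrial messages themselves were called only upwards in those lines. With the HIF-2α IDR 11 of the 24 were lower and 0 higher (13.4% and 11.4% of all genes). Of the 2 mitochondrial rRNA genes 1 was lower with that IDR and 1 rose in HIF-2α/1α against WT. Their median log2 change against WT was 0.01 in HIF-2α, -0.03 in HIF-1α/2α, -0.01 in HIF-1α and 0.12 in HIF-2α/1α. CYCS, the gene of cytochrome c, the carrier between complexes III and IV, fell in all 4 lines, by -0.29 in HIF-1α, -0.24 in HIF-2α/1α, -0.48 in HIF-2α and -0.32 in HIF-1α/2α.

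Of 37 assembly factors, 13 fell and 6 rose in HIF-2α, 7 fell and 10 rose in HIF-1α/2α, 7 fell and 1 rose in HIF-1α, and 3 fell and 2 rose in HIF-2α/1α. Of all genes 14% fell and 13.4% rose in the first of these lines, 14.1% and 13.7% in the second, 7.87% and 9.31% in the third and 7.91% and 8.76% in the last. COA7, needed for complex IV assembly, fell by -0.74 in HIF-2α and -0.58 in HIF-1α/2α, and COA3, which acts with newly made MT-CO1, rose by 0.47 and 0.62. UQCC2, which acts with newly made MT-CYB, rose by 0.26 in HIF-2α, 0.63 in HIF-1α/2α and 0.33 in HIF-2α/1α. Of the 4 subunits of complex II, which mitochondrial DNA does not encode, SDHA rose by 0.57 in HIF-2α and 0.24 in HIF-1α/2α and SDHB fell by -0.20 in HIF-2α and -0.19 in HIF-1α. Of 10 regulators of mitochondrial gene programs, 7 fell and 1 rose in HIF-2α (14% and 13.4% of all genes), 3 fell and 1 rose in HIF-1α/2α, 2 fell and 1 rose in HIF-2α/1α, and 1 fell and 1 rose in HIF-1α. In HIF-2α the coactivator gene PPARGC1B fell by -1.77 and the nuclear receptor gene ESRRA by -0.70, and MXI1, a known HIF target, rose by 2.22. MXI1 rose in the other lines too, by 1.31 in HIF-1α, 1.28 in HIF-1α/2α and 0.62 in HIF-2α/1α.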

How the data were processed

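Poly(A) RNA-seq of 786-O lines was analysed from gene counts in 42 libraries. Per the labels and the study's methods, the authors aligned reads with STAR to hg38, kept uniquely mapped reads and made the deposited counts per gene with HTSeq 0.11.1 in union mode without strand (GENCODE v32). Unique alignment leaves out reads shared with near-identical nuclear copies of mitochondrial and subunit genes. Libraries were grouped by their labels, 3 per group. Each batch was fitted on its own with edgeR 4.0.16 in R 4.3.3 (TMM, quasi-likelihood test, all groups of the batch). Genes entered where their normalized counts averaged 0.5 or more. Calls are at a Benjamini-Hochberg adjusted p of at most 0.01 over all genes tested. Errors are standard errors worked back from the log2 change and the F of edgeR's test, which shares information on spread across genes. They can be smaller than the spread between the replicates of a gene would give. CPM are counts scaled to a library size of 1e+06 with TMM factors. The batches met only in the test of the difference between responses. DESeq2 1.42.0 and the other settings below were alternatives. The fits were run on simulated counts with a single fixed spread for all genes, which is not the spread of either batch. For HIF-2α against WT they called 46 of 50 genes raised by log2 1 in the second batch and 48 of 50 in the first. Of 50 genes raised by log2 0.5 they called 4 and 5.

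Members and lists were chosen with earlier results of these data known. Named genes are the 13 mitochondrial subunits, nuclear subunits called with at least a 2-fold change, up to 3 called nuclear subunits of lowest adjusted p in each direction per comparison with WT, the 3 subunit c genes, and up to 4 called genes of largest change per comparison from the other lists. Other genes named were chosen after their values were seen, and 1 gene that the rule covers is not reported here. In the first batch the correlation of deviations between same-numbered libraries, whose pairing comes from the data and not from the labels, was 0.109 to 0.776 in the comparisons with WT, and was -0.23 for number 1 of HIF-1α with R30E. In the second it was -0.068 to 0.101, so its libraries were not taken as paired.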

Additional observations from a re-analysis of the deposited data

How the results depend on the processing

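Counts of calls moved with the tool, the filter, a fold minimum and single libraries, of WT and of the lines. NDUFA7, NDUFV2 and NDUFA13 had the fewest reads in the second batch (at most 0.347, 0.400 and 1.12 CPM), so their values are the least precise there in counting error. TMM replaced by DESeq2's size factors within edgeR, and normalization without mitochondrial genes, moved no mitochondrial count beyond 1.5 times. Causes were not tested. The shares of all genes called with DESeq2 or without the filter are not given here, so those counts cannot be read as particular to subunits. Mitochondrial calls without a filter on low counts became 1 in R30E, 6 for HIF-1α against HIF-1αDM, 6 in HIF-1αDM, 1 in HIF-2α KIN, 3 in HIF-2α and 1 in HIF-2αDM of the first batch, and 5 in HIF-1α and 1 for the structured domain in the second. With DESeq2 they became 0 in HIF-1α, 2 in HIF-1α/2α, 1 in HIF-2α, 0 in HIF-2α/1α and 3 for the IDR. With a minimum of 2-fold they became 0 in each of these 5. Nuclear calls with DESeq2 were 1 in R30E, 1 in each KIN line and 20 for the structured domain. Without the filter they were 2 in R30E, 2 for HIF-1α against R30E, 3 in each KIN line, 2 for HIF-2α against R27E, 3 against HIF-2αDM and 3 in HIF-2α of the first batch. With only libraries numbered 1 and 2, an alternative chosen after seeing the data, they were 1 in R30E (2.74% of all genes), 1 for HIF-1α against R30E (2.51%) and 2 in HIF-2α KIN (5.42%). They were 1 each for HIF-2α against R27E (5.52%), HIF-2αDM (5.28%) and WT (7.8%). With a minimum of 2-fold, 0 were left in HIF-1α, HIF-1α/2α, HIF-2α/1α and the IDR and 1 in HIF-2α and the structured domain. The median nuclear change for the HIF-1α response between batches was -0.15, and became -0.053 with DESeq2, -0.053 with its size factors and -0.027 without the filter.

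With the replicate block, nuclear calls became 2 in R30E, 2 for HIF-1α against R30E, 3 in HIF-1β KIN, 6 in HIF-2α KIN, 6 in HIF-2α, 2 for HIF-2α against R27E and 4 against HIF-2αDM in the first batch. They became 14 for the structured domain (9 higher and 5 lower, where 6.85% and 7.28% of all genes were). They became 3 for the HIF-2α response between batches (3.17% of all genes). Mitochondrial calls with the block became 1 in HIF-1αDM, 2 for the structured domain and 2 for the HIF-2α response. In HIF-1α of the second batch they became 5 (4 higher and 1 lower, where 10.4% and 9.28% of all genes were). In the second batch the numbers do not pair the libraries.

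Leaving out 1 library at a time gave 1 to 4 mitochondrial calls in HIF-1α, 2 to 10 in HIF-1α/2α, 3 to 11 in HIF-2α, 0 to 3 in HIF-2α/1α and 0 to 1 for the structured domain. It gave 0 to 1 nuclear calls in R30E (1 without its library 2), 8 to 14 in HIF-2α/1α and 4 to 11 for the structured domain. The mitochondrial minus nuclear median ran from -0.41 to 0.46 in R30E, from -0.19 to 0.47 for the HIF-1α response and from -0.20 to 0.41 for the HIF-2α response. The mitochondrial median of the HIF-1α response ran from -0.37 to 0.31, and the nuclear median of HIF-1α in the first batch from -0.080 to 0.14.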
